A study of Rattus norvegicus with 4 samples.

Results

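DNA replication and S-phase genes are described here as a set of 44 genes whose proteins prepare replication origins, copy DNA, supply deoxynucleotides, rebuild chromatin on the copied strands and start S phase. They were chosen by gene symbol from a deposited table of 23608 gene entries, with earlier results of these data known. All 44 symbols were found, and all 44 were among the 13634 entries that reached 1 CPM in at least 1 library, where CPM is counts per 1000000 reads after scaling between libraries with TMM (trimmed mean of M-values). E2f2 reached that minimum only in the library in which it was highest. The minimum thus favoured its place in counts of genes highest or higher in that library. The cells were primary wild-type microvessels of the rat, taken from subcutaneous soft connective tissue and kept on extracellular matrix (ECM) that was either stiff or soft. They were kept with or without A83-01, a small molecule that blocks the kinases of the TGF-beta type I receptors. The study asked how stiffness and this inhibitor bear on microvessels and on the change of pericytes into myofibroblasts. Its 4 RNA-seq libraries were stiff ECM with A83-01, stiff ECM without it, soft ECM with A83-01 and soft ECM without it, with 1 library each.

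The labels give neither the stiffness of the matrices nor the dose or duration of A83-01. They do not say whether the libraries came from separate animals or cultures, so no p-value here measures the spread between animals or cultures. With 1 library per condition, the main p-values rest on how far the 4 libraries depart from additive effects of stiffness and A83-01. They also use a spread estimated across genes. Such departures may be technical. The labels give the stiff libraries sample codes of another form than the soft ones, and a separate preparation, if there was one, cannot be told apart from stiffness.

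Before a cell divides, the origin recognition complex with Cdc6 and Cdt1 loads the ring-shaped MCM2-7 helicase onto origins in G1. In S phase, Cdc45 and the GINS complex join MCM2-7 to form the active helicase, and primase and the DNA polymerases follow on the sliding clamp PCNA. Most of these genes are textbook targets of the E2F transcription factors, which cyclin-dependent kinases release from the retinoblastoma protein at the entry into S phase. TGF-beta signalling is known to hold many epithelial and endothelial cells in G1.

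Total counts were between 32271844 and 33416200 per library, so 3 counts were worth 0.0842 to 0.103 CPM. The labelled vascular identity was checked on marker lists. Endothelial markers were abundant, with 9 markers summing to 2493 CPM in the stiff library with A83-01, 1420 CPM in the stiff library, 1813 CPM in the soft library with A83-01 and 1779 CPM in the soft library. Cdh5 weighed most, at 1325, 730, 886 and 870 CPM in this order. Vwf, at 18.6, 31.2, 48.0 and 126 CPM, and Kdr, at 157, 106, 248 and 210 CPM, were instead higher in both soft libraries. The 10 pericyte and mural markers summed to 8018, 9416, 2195 and 3014 CPM in the same order of libraries. Acta2 and Tagln, genes of contractile cells, weighed most in the difference between the 2 stiff libraries, and 6 of the 10 markers were highest in the stiff library with A83-01. The 8 fibroblast markers, most of them made by other mesenchymal cells too, summed to 42042, 125064, 48817 and 69215 CPM, of which the collagen genes Col1a1 and Col3a1 made up the larger part. Other markers of the list ran differently, with Pdgfra at 241, 198, 931 and 1054 CPM and Dcn at 5279, 1442, 21955 and 11520 CPM. Leukocyte markers summed to between 58.0 and 92.9 CPM over 7 genes, with Cd3e at 0 in every library. Single markers differed more than the sum. In the same order of libraries, Lyz2 had 6.09, 23.5, 1.01 and 1.58 CPM and Cd74 had 0.365, 0, 10.8 and 5.74 CPM. Of the 5 leukocyte markers compared, 4 were lower and 1 was higher in the stiff than in the soft library. Keratinocyte markers stayed at or below 2.69 CPM in sum over 5 genes, with Krt5, Krt14 and Epcam at 0 in every library. Adipocyte markers summed to between 7.36 and 24.3 CPM over 5 genes. The marker sums thus differed between the libraries, and in these bulk samples fewer cells of a type and less RNA per cell cannot be told apart. What part the cell mix has in the values below was not tested.

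The replication genes stood highest in the stiff library with A83-01. Their counts made up 0.133% of all counts there, against 0.0736% in the stiff library, 0.0801% in the soft library with A83-01 and 0.0704% in the soft library. The sum of their TMM-scaled levels was 1242 CPM in the stiff library with A83-01, 841 CPM in the stiff library, 772 CPM in the soft library with A83-01 and 683 CPM in the soft library. Of the 44 genes, 42 were highest in the stiff library with A83-01, which held the highest value for 27.2% of all genes compared. For 36 of these 42, the 95% counting interval of the ratio to the next highest library lay above 1. The exceptions were Ccne1, highest in the stiff library without inhibitor, and Gins2, highest in the soft library with A83-01. The soft library held the lowest value of 25 genes, the soft library with A83-01 of 13, and the stiff library of 6; 44.7% of all genes had their lowest value in one of the soft libraries.

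**Figure D1:**
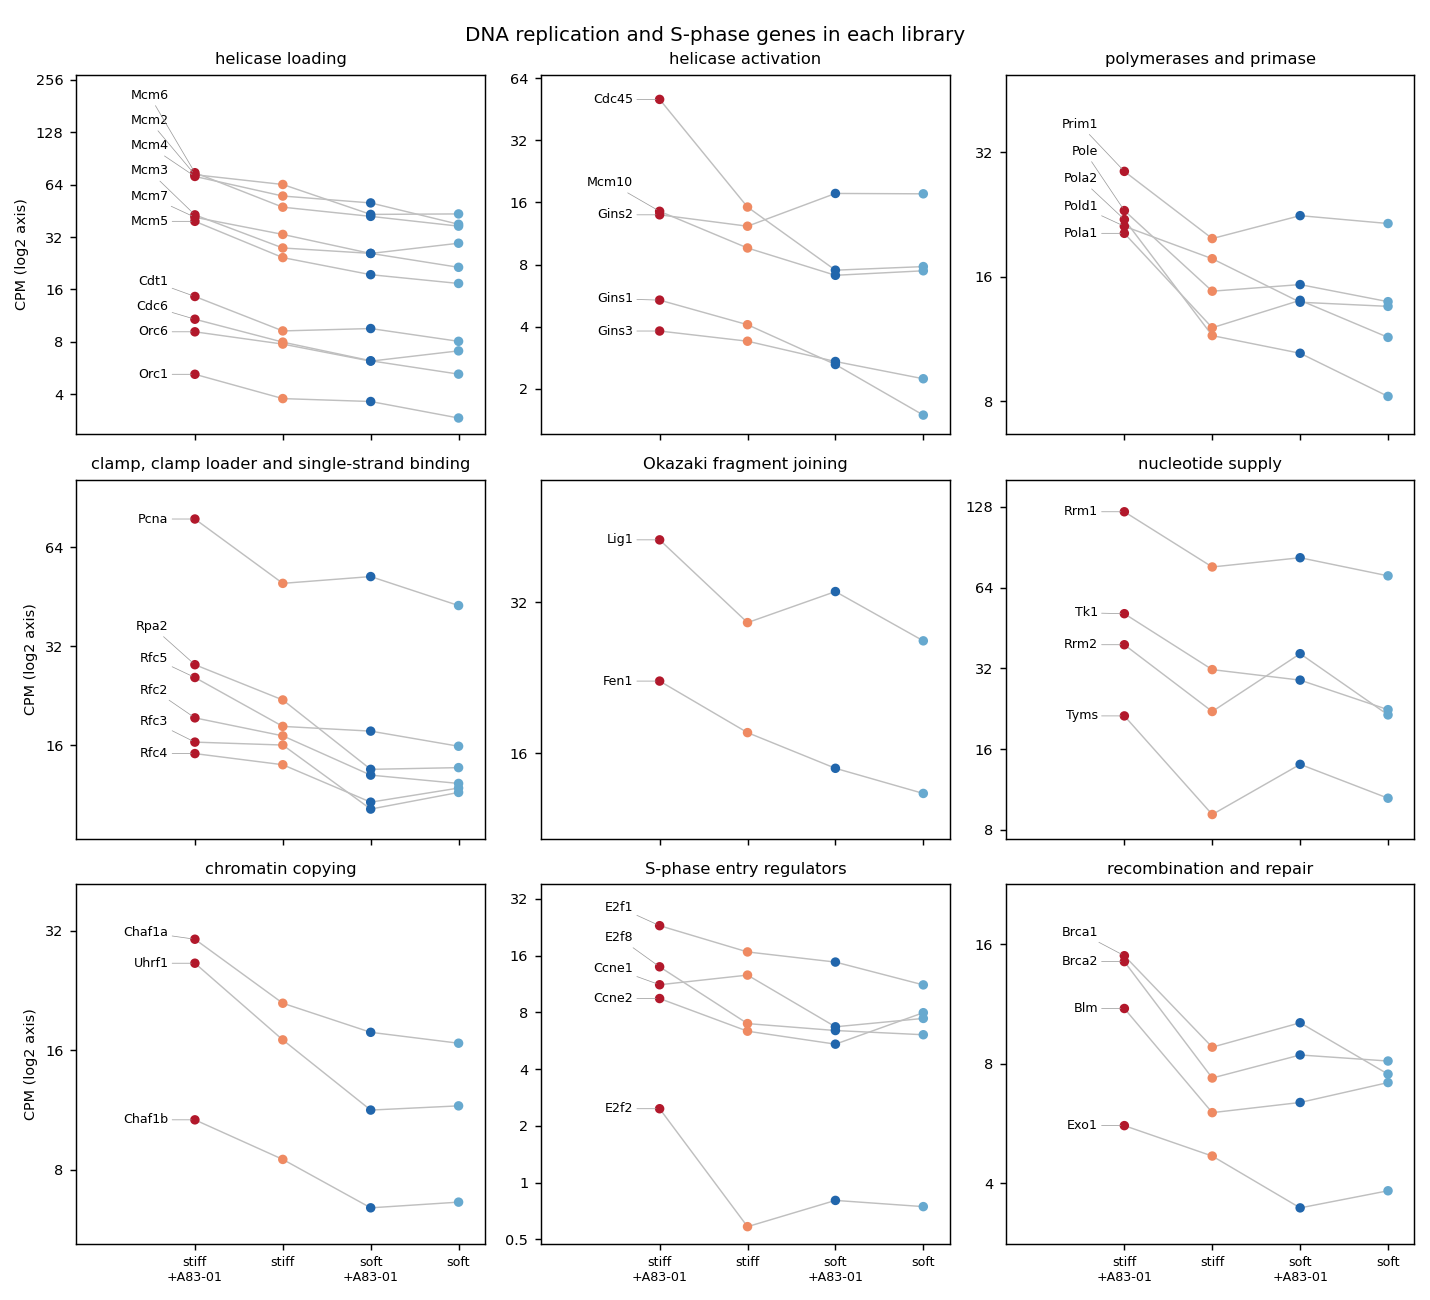
Level of each of the 44 genes (CPM after TMM scaling, log2 axis) in the 4 libraries, 1 panel for each role; a point is 1 library, the lines only join the points of a gene, and there are no error bars because each condition has 1 library. The left-most point is the highest for 42 of 44 genes; the exceptions are Ccne1 and Gins2.

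With 1 library per condition, a pair of libraries allows no test of the condition. Each ratio is given as a fold of TMM-scaled CPM with 2 counts added to steady low values, beside a 95% binomial interval that covers counting error only. A gene was counted as higher or lower in a pair when the ratio was at least 2-fold and the interval did not contain 1. Each library enters 2 of the 4 pairs, so the pairs are not independent of one another. In the pair with A83-01 on both sides, 43 of 44 genes were higher in the stiff library with A83-01 than in the soft library with A83-01, as 50.9% of all genes were. For 42 of them the interval lay above 1, as for 35.2% of all genes, and the median fold was 1.60, against 1.01 for all genes. Of the 44, 9 were at least 2-fold higher, namely Mcm5, Mcm10, Cdc45, Gins1, Pola2, Rpa2, Uhrf1, E2f2 and E2f8, where 6.88% of all genes were. E2f2 met the minimum of 1 CPM only in the higher library of this pair, which favoured its place in this count. At 1.5-fold the count was 28 of 44, where 13.5% of all genes passed.

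Without the inhibitor the median ratio between the matrices was smaller. In the stiff library 37 of 44 genes were higher than in the soft library, as 50.1% of all genes were. The interval lay above 1 for 27 of them, as for 34.6% of all genes. It lay below 1 for Gins2 and Ccne2, as for 4544 of all 13634 genes. The median fold was 1.27, against 1.00 for all genes. Only Gins1 was at least 2-fold higher, and this share was no larger than the 5.33% of all genes. At 1.5-fold 6 of 44 passed, close to the 10.9% of all genes.

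A83-01 went with higher levels mainly on the stiff matrix. In the stiff library with A83-01, 43 of 44 genes were higher than in the stiff library, as 52.4% of all genes were. The interval lay above 1 for 37 of them, as for 34.3% of all genes, and the median fold was 1.46, against 1.02 for all genes. Cdc45, Tyms and E2f2 were at least 2-fold higher, a share close to the 7.8% of all genes, while 20 of 44 passed 1.5-fold, where 15% of all genes did. Here too E2f2 met the minimum of 1 CPM only in the higher library. In the soft library with A83-01, 30 of 44 genes were higher than in the soft library, as 49.6% of all genes were, and 14 were lower. The interval lay above 1 for 16 genes, as for 26.2% of all genes. It lay below 1 for Mcm7 and Ccne2, as for 3393 of all 13634 genes. The median fold was 1.09, against 0.999 for all genes. None reached 2-fold on the soft matrix, where 2.18% of all genes did, and 2 (Gins1 and Rrm2) reached 1.5-fold, where 5.63% of all genes did.

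The response to A83-01 was larger on the stiff than on the soft matrix for 40 of 44 genes, with a median difference of 0.37 on the log2 scale; 52.3% of all genes differed in that direction. For 29 of the 44 the counting interval of this difference lay above 0, as it did for 27.4% of all genes. The 4 exceptions, Mcm4, Gins1, Gins3 and Ccne1, had intervals that contained 0. This difference has no test, since an interaction term would take the last residual degree of freedom.

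TMM scaling gave the stiff library a factor of 0.876, against 1.03 to 1.07 for the others. With total counts alone as the scale, the all-gene median shifted by -0.23 (log2) for stiff against soft and by 0.28 for A83-01 on the stiff matrix. The genes above 0 then numbered 25 of 44 for stiff against soft and 44 of 44 for A83-01 on the stiff matrix. The all-gene median was then -0.23 and 0.31 in these pairs. The share of all genes above 0 was not computed for this scale. The order of the pairs also depended on the scale: the median log2 ratio of the 44 genes was 0.68 between the 2 libraries with A83-01 and 0.54 for A83-01 on the stiff matrix with TMM, but 0.72 and 0.83 with total counts. Relative to the median of all genes, the median of the 44 genes was 0.34 for stiff against soft and 0.52 for A83-01 on the stiff matrix under either scaling. The directions given here are on TMM scaling, that is, relative to the bulk of all genes.

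**Figure D2:**
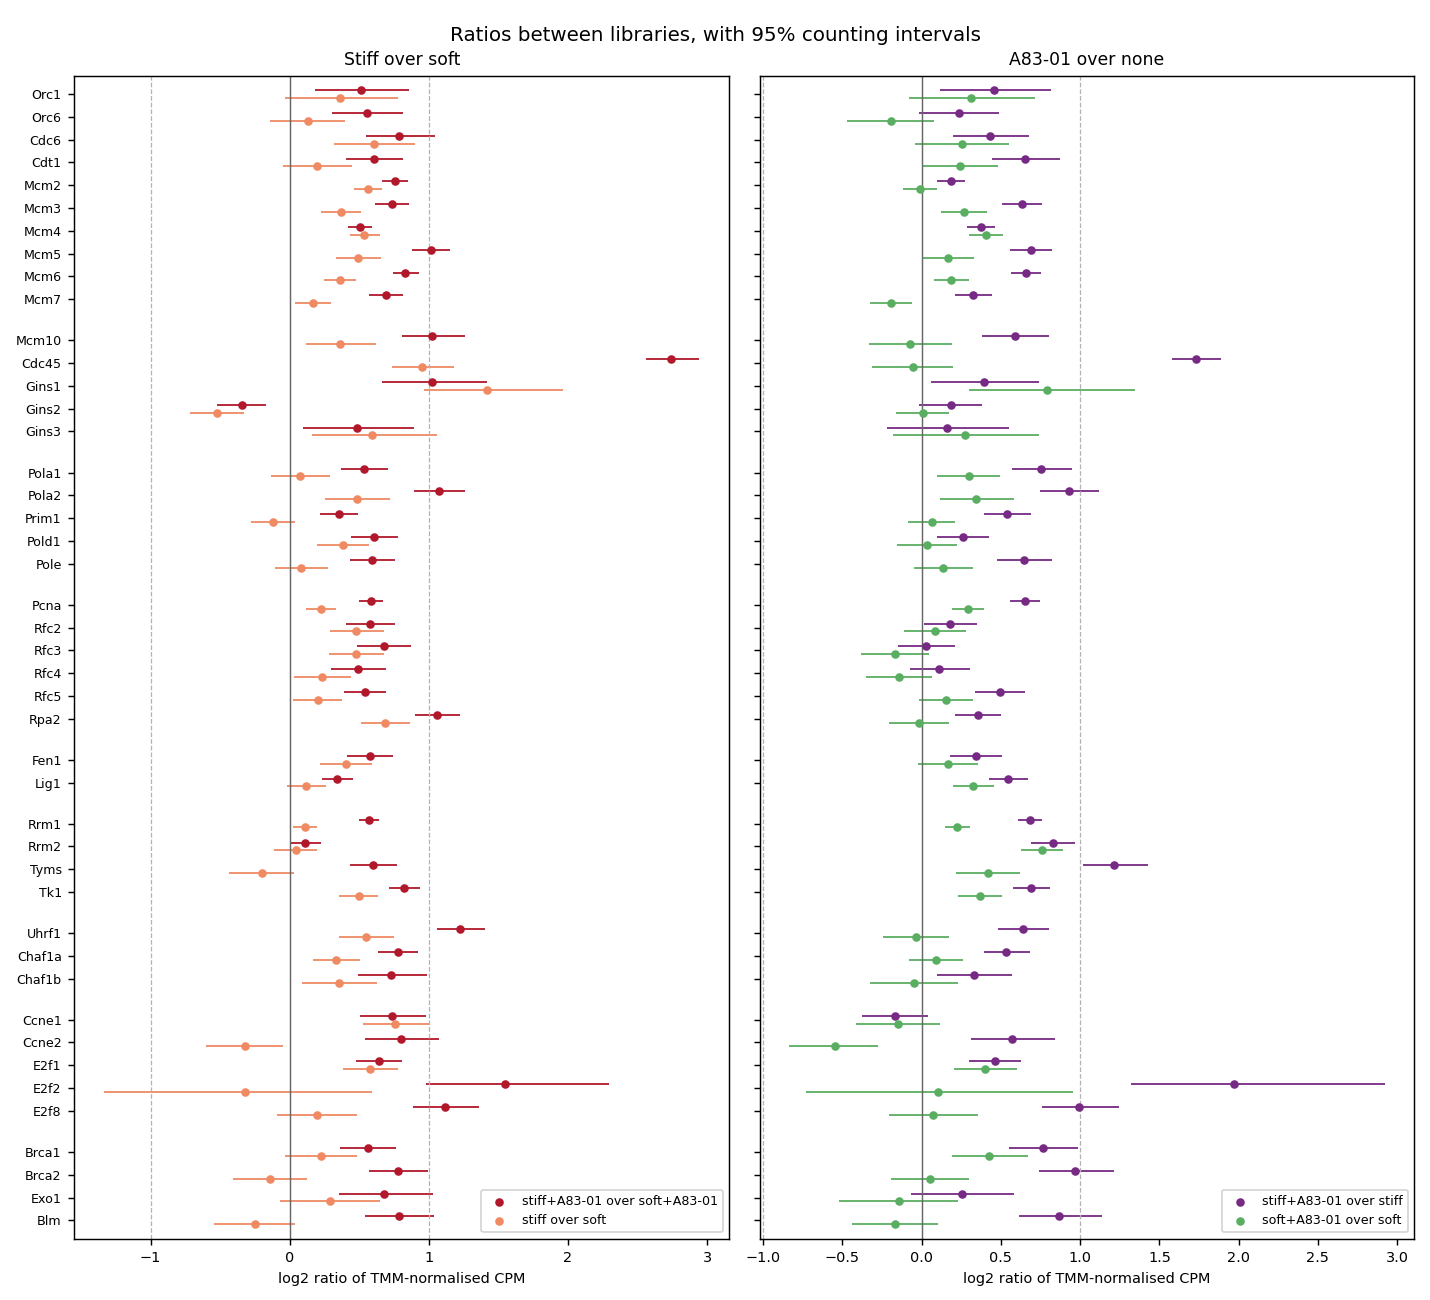
Log2 ratio of TMM-scaled CPM for each gene, stiff over soft at left and A83-01 over none at right; points are ratios between 2 libraries, bars are 95% counting intervals, the solid line marks no difference and the dashed lines 2-fold. At left the ratios with A83-01 lie above 0 for 43 of 44 genes, and at right those on the stiff matrix lie above 0 for 43 of 44 and those on the soft matrix for 30 of 44.

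A model with stiffness and A83-01 as additive terms leaves 1 residual degree of freedom over the 4 libraries, and gave the test reported here. By the quasi-likelihood test of edgeR, adjusted over all 13634 genes by the Benjamini-Hochberg method at 0.05, none of the 44 genes passed for stiffness, where 2.35% of all genes passed as higher and 3.29% as lower. None passed for A83-01 either, where 0% of all genes passed as higher and 0.044% as lower. At an unadjusted p of 0.05 or less, 22 of the 44 were higher on the stiff matrix, where 12.1% of all genes were. In the same fit 1 was lower, as 1797 of all 13634 genes were. For A83-01 the unadjusted count was 12 higher, where 7.25% of all genes were, and 0 lower, where 823 of all 13634 genes were. The smallest adjusted p-values were 0.0594 for stiffness (Rpa2) and 0.161 for A83-01 (Rrm2). DESeq2 called 2 of the 44 for stiffness (Cdc45 and Rpa2), where it called 9.58% of all genes in either direction. Limma-voom called 3 (Mcm2, Cdc45 and Rpa2), where it called 7.99% of all genes. These were higher on the stiff matrix, and neither share was above that of all genes called in either direction. The shares of all genes called higher alone were not computed for DESeq2 and limma-voom. Both called 0 of the 44 for A83-01, where DESeq2 called 3.4% and limma-voom 0.022% of all genes. With 1 factor at a time in edgeR's model, 0 of the 44 passed for either factor, where 0.22% of all genes passed for stiffness and 0% for A83-01. At an unadjusted p of 0.05 or less, 14 were then higher for stiffness and 2 for A83-01. The shares of all genes at that unadjusted threshold were not computed for this setting. The additive model assumes the same response to A83-01 on both matrices, and the differences in response described above enter its residual.

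Across the 44 genes, 29 had both stiff libraries above both soft libraries, an order that 26.5% of all genes showed. For 12 genes both libraries with A83-01 stood above both without it, where 16.7% of all genes did. These 12 were Cdt1, Pola1, Prim1, Pole, Pcna, Lig1, Rrm1, Rrm2, Tyms, E2f2, Brca1 and Brca2. Of these, E2f2 was below 1 CPM in every library but the stiff one with A83-01. Only Gins2 had both stiff libraries below both soft ones, an order shown by 27.1% of all genes. These orders are on TMM scaling and were not recounted with total counts. As a share of total counts, the 44 genes stood lower in the stiff library (0.0736%) than in the soft library with A83-01 (0.0801%). The numbers of genes ordered by matrix and by A83-01 thus depend on the scale.

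Promoters were read for letters that E2F proteins are known to bind. A RefSeq promoter on the GRCr8 assembly, from 250 bases before to 50 bases after the start of transcription, was at hand for 35 of the 44 genes, in 37 promoters. Orc1, Cdc6, Mcm4, Rrm2, Ccne2, E2f1, E2f2, E2f8 and Blm had none in the table. The letters TTTCCCGC, TTTGGCGC, TTTCGCGC or TTTGCCGC stood on either strand in 15 of the 37 promoters (40.5%), each of a different gene, and in 2.14% of all 33469 promoters of the table. Among 21 mitosis genes with a promoter, 1 held such letters (4.76%). The letters TTTGAA, the core of the cell cycle homology region known from mitotic promoters, stood in 5.41% of the replication promoters, 66.7% of the mitosis promoters and 18.3% of all promoters. The CCAAT box stood in 64.9%, 66.7% and 37.5% of them. E2F letters overlapped another of these motifs in 1 replication promoter. A match is a description of the letters and not a site shown to be bound.

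The promoters of 5 genes with a match are printed from 250 bases before to 30 bases after the start of transcription, because these genes were at least 2-fold higher in a pair of libraries. Gins1, Mcm5, Rpa2 and Uhrf1 were so in the stiff library with A83-01 against the soft library with A83-01, and Tyms in the stiff library with A83-01 against the stiff library. Of the others past 2-fold, Mcm10, Cdc45 and Pola2 had no match in this window. The promoter of Gins1 lies at chr3:160184670-160184949 on the plus strand, and its overlapping pair of matches faces opposite ways. The promoter of Mcm5 lies at chr19:13488563-13488842 on the plus strand, that of Rpa2 at chr5:150260522-150260801 on the plus strand and that of Tyms at chr9:120776054-120776333 on the minus strand. The printed promoter of Uhrf1 lies at chr9:1222936-1223215 on the plus strand. It is the only promoter of this gene with matches, and the others at hand for Uhrf1 held none. Each is written 5′ to 3′ on the strand of the gene, with the E2F letters of either strand in capitals.
Gins1: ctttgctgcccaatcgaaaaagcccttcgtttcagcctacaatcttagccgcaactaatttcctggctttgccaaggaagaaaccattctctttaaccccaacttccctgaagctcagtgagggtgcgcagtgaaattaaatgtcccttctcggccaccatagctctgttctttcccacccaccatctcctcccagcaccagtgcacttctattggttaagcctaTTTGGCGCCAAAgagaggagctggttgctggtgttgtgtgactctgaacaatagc
Mcm5: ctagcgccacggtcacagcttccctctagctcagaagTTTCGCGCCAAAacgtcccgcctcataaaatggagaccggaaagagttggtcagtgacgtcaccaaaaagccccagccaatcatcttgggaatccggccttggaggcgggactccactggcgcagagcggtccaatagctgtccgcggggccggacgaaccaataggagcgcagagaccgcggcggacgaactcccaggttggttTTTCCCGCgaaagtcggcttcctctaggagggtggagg
Rpa2: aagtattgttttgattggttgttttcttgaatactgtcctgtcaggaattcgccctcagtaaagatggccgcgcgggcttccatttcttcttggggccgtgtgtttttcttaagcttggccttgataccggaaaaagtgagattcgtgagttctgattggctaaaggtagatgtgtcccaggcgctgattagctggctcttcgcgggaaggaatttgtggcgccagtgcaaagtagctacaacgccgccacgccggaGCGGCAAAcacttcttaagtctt
Tyms: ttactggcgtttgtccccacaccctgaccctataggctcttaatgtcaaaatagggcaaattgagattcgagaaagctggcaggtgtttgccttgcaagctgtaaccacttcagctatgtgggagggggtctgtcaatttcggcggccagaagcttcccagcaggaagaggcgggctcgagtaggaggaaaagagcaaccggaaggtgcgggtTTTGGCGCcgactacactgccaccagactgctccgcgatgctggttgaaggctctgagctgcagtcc
Uhrf1: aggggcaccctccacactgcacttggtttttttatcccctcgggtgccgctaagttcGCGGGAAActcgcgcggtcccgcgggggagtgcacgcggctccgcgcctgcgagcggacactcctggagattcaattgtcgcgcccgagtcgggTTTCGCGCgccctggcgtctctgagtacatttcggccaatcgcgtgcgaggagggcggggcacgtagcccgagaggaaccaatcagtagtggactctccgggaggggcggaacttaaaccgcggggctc

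The 10 helicase-loading genes were all highest in the stiff library with A83-01, with a median fold of 1.64 over the soft library with A83-01 and of 1.36 over the stiff library. Within the 6 MCM2-7 subunits, which form 1 ring in equal numbers, the summed FPKM (fragments per length of transcript and library size, as deposited) was 98.0 in the stiff library with A83-01, 58.3 in the stiff library, 56.8 in the soft library with A83-01 and 51.7 in the soft library. The highest subunit stood 1.99 to 2.46 times above the lowest in FPKM within a library.

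Mcm5 had 39.4 CPM in the stiff library with A83-01, 24.4 CPM in the stiff library, 19.5 CPM in the soft library with A83-01 and 17.3 CPM in the soft library. It was the only MCM2-7 subunit past 2-fold in any pair, at 2.02-fold (1.84 to 2.22) between the 2 libraries with A83-01. Mcm2 had 72.9, 64.1, 43.2 and 43.4 CPM in the same order of libraries. Both stiff libraries stood above both soft ones for Mcm2, whose additive difference for stiffness was 0.66 ± 0.131 on the log2 scale (SE, adjusted p = 0.0614 by edgeR's quasi-likelihood test). The ratio for A83-01 was 1.14-fold (1.07 to 1.21) on the stiff matrix and 0.994-fold (0.923 to 1.07) on the soft one. Mcm4 had 71.3, 55.0, 50.2 and 37.9 CPM, so its 1.30-fold (1.22 to 1.38) higher level with A83-01 on the stiff matrix stood beside 1.33-fold (1.23 to 1.43) on the soft one. Mcm7 had 41.5, 33.1, 25.8 and 29.5 CPM, which was 1.25-fold (1.16 to 1.36) higher with A83-01 on the stiff matrix and 0.874-fold (0.796 to 0.958) on the soft matrix. Mcm3 and Mcm6 were higher with A83-01 on both matrices, and Mcm6 led the subunits in the stiff library with A83-01 at 22.1 FPKM.

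The loaders stood at lower levels than the ring per transcript length, at 1.76 to 5.61 FPKM against 11.1 to 22.1 FPKM for the MCM2-7 subunits in the stiff library with A83-01. Orc1, the ATPase subunit of the origin recognition complex that is itself controlled by E2F, had 5.22, 3.78, 3.64 and 2.93 CPM. Orc6, a small subunit of the same complex, had 9.15, 7.77, 6.21 and 7.11 CPM. Cdc6, which closes the loading complex, had 10.8, 7.98, 6.24 and 5.23 CPM, and was 1.72-fold (1.46 to 2.06) higher in the stiff library with A83-01 than in the soft library with A83-01. Cdt1, which escorts the ring to the origin and is held back by geminin, had 14.6, 9.25, 9.55 and 8.07 CPM. Of the 4 loaders, Cdt1 showed the largest ratio for A83-01 on the stiff matrix, 1.57-fold (1.36 to 1.83), and Orc6 was the only one below 1 with A83-01 on the soft matrix, with an interval that contained 1.

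**Figure D3:**
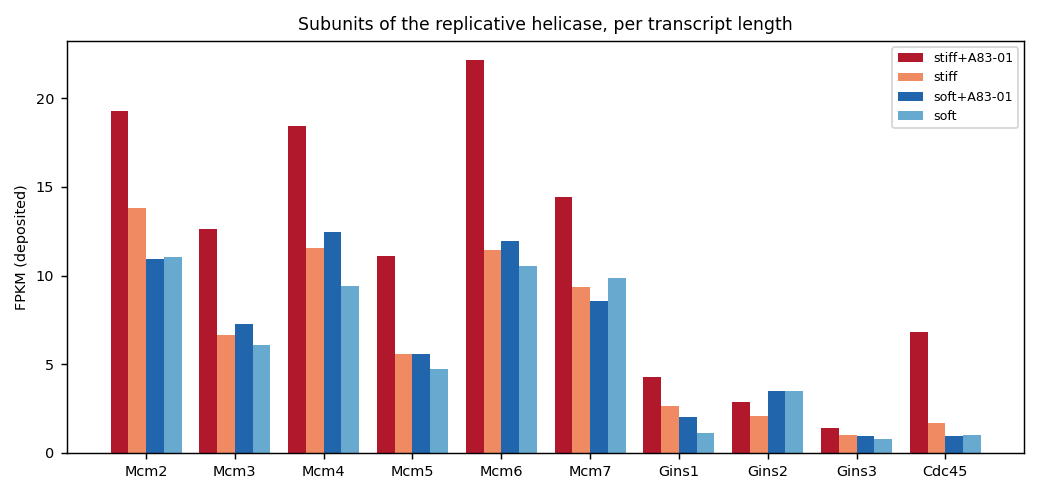
Deposited FPKM of the MCM2-7 subunits, the 3 GINS subunits of the set and Cdc45 in each of the 4 libraries; each bar is 1 library, so there are no error bars. The stiff library with A83-01 holds the tallest bar of each gene except Gins2, and the MCM subunits stand above the GINS subunits in every library.

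Among the genes of helicase activation, Cdc45 differed most of all 44 genes between the 2 libraries with A83-01. Cdc45, which bridges MCM2-7 and GINS, had 50.5 CPM in the stiff library with A83-01, 15.2 CPM in the stiff library, 7.52 CPM in the soft library with A83-01 and 7.83 CPM in the soft library. The stiff library with A83-01 stood apart from the other libraries, and the stiff library stood above both soft ones. The ratio was 6.67-fold (5.89 to 7.70) between the 2 libraries with A83-01, 1.94-fold (1.66 to 2.27) between the 2 without it, 3.31-fold (2.99 to 3.70) for A83-01 on the stiff matrix and 0.961-fold (0.805 to 1.15) for A83-01 on the soft matrix. The additive difference for stiffness was 1.86 ± 0.457 on the log2 scale (SE, adjusted p = 0.0912 by edgeR's quasi-likelihood test). The make-up of this row is uncertain. Its count and FPKM imply a transcript of 7955 bases, against a median of 2770 bases over all genes compared. Cldn5, an abundant endothelial tight-junction gene that lies 2192 bases from Cdc45 in GRCr8, had 0, 0, 31 and 0 counts, although Cdh5, the endothelial cadherin, had 1325, 730, 886 and 870 CPM. Whether the row of Cdc45 holds reads of Cldn5 was not tested. Without Cdc45 the summed level of the other 43 genes was 1192, 825, 764 and 675 CPM.

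Gins1, a subunit of the GINS tetramer, had 5.39, 4.09, 2.63 and 1.49 CPM. Both stiff libraries lay above both soft ones, and Gins1 was the only gene past 2-fold in both comparisons of stiff with soft, at 2.03-fold (1.59 to 2.67) with A83-01 and 2.67-fold (1.95 to 3.89) without it. Gins3 had 3.82, 3.41, 2.72 and 2.24 CPM, the same order with smaller ratios. Gins2 went the other way, with 13.9 and 12.3 CPM in the stiff libraries with and without A83-01, against 17.7 and 17.6 CPM in the soft libraries with and without it. Its ratio was 0.789-fold (0.698 to 0.889) between the 2 libraries with A83-01 and 0.698-fold (0.609 to 0.796) between the 2 without it, and its additive difference for stiffness was -0.43 ± 0.159 on the log2 scale (SE, adjusted p = 0.185 by edgeR's quasi-likelihood test). In GRCr8 the gene overlaps Gse1, whose counts were 499, 327, 793 and 748 against 497, 357, 593 and 590 for Gins2, and its row implies a transcript of 5225 bases. Whether the row holds reads of Gse1 was not tested. Mcm10, which helps to fire the helicase, had 14.5, 9.63, 7.10 and 7.47 CPM and was 2.03-fold (1.75 to 2.39) higher in the stiff library with A83-01 than in the soft library with A83-01.

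The 5 genes of polymerases and primase were all highest in the stiff library with A83-01 and had intervals above 1 both against the soft library with A83-01 and against the stiff library. Pola2, the regulatory subunit of DNA polymerase alpha, had 22, 11.5, 10.4 and 8.22 CPM. The stiff library with A83-01 stood apart, and the other 3 lay between 8.22 and 11.5 CPM. Pola2 was 2.10-fold (1.85 to 2.40) higher than in the soft library with A83-01 and 1.90-fold (1.68 to 2.18) higher than in the stiff library. Pola1, the catalytic subunit of the same enzyme, had 20.4, 12, 14 and 11.4 CPM, and here both libraries with A83-01 lay above both without it. Prim1, the catalytic subunit of primase, had 28.8, 19.8, 22.5 and 21.5 CPM, also with both libraries with A83-01 on top. Pole, the catalytic subunit of the leading-strand polymerase epsilon, had 23.1, 14.8, 15.3 and 13.9 CPM. Pold1, the catalytic subunit of the lagging-strand polymerase delta, had 21.2, 17.7, 13.9 and 13.6 CPM and followed the matrix instead, with both stiff libraries on top.

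The clamp, its loader and single-strand binding differed between the matrices, with 6 of 6 genes higher in the stiff library of both comparisons and every interval excluding 1, although under scaling by total counts Pcna and Rfc5 turned to -0.01 and -0.03 on the log2 scale without the inhibitor. Pcna, the sliding clamp that holds polymerases to DNA, had the highest FPKM of the 44 genes in each library, at 58.1 in the stiff library with A83-01, 30.1 in the stiff library, 37.2 in the soft library with A83-01 and 30.5 in the soft library. In CPM it had 78.1, 49.7, 52.2 and 42.6, with both libraries with A83-01 above both without it. Rpa2, a subunit of the protein that coats single-stranded DNA, had 28.1, 21.9, 13.5 and 13.7 CPM. Both stiff libraries lay well above both soft ones for Rpa2, at 2.08-fold (1.86 to 2.33) with A83-01 and 1.60-fold (1.42 to 1.82) without it, and its additive difference for stiffness, 0.87 ± 0.17 on the log2 scale (SE), had the smallest adjusted p of the set, 0.0594 by edgeR's quasi-likelihood test. The 4 clamp-loader genes Rfc2, Rfc3, Rfc4 and Rfc5 had 15.1 to 25.7 CPM in the stiff library with A83-01, 13.9 to 18.2 CPM in the stiff library, 10.2 to 17.6 CPM in the soft library with A83-01 and 11.5 to 15.9 CPM in the soft library. Rfc3 and Rfc4 differed little with A83-01, at 1.02-fold (0.902 to 1.16) and 1.08-fold (0.949 to 1.23) on the stiff matrix, with intervals that contained 1 on both matrices. Fen1 and Lig1 process and seal Okazaki fragments. Fen1 had 22.3, 17.6, 14.9 and 13.3 CPM, and Lig1 had 42.6, 29.1, 33.6 and 26.8 CPM. On TMM scaling the stiff libraries lay on top in Fen1, and the libraries with A83-01 in Lig1. In deposited FPKM, Fen1 had 5.67 in the stiff library and 5.69 in the soft library with A83-01.

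All 4 genes of nucleotide supply were higher with A83-01 on both matrices. For 4 of 4 the interval lay above 1 on the stiff and on the soft matrix, and the median fold was 1.69 on the stiff and 1.31 on the soft matrix. Rrm2, the regulated small subunit of ribonucleotide reductase, had 39.2 CPM in the stiff library with A83-01 and 36.3 CPM in the soft library with A83-01, against 22.1 CPM in the stiff library and 21.5 CPM in the soft library. The libraries fell into pairs by A83-01 and not by matrix. Rrm2 was 1.77-fold (1.62 to 1.95) higher with A83-01 on the stiff matrix and 1.69-fold (1.54 to 1.86) higher on the soft one, and its difference between the matrices was 1.08-fold (0.999 to 1.17) with A83-01 and 1.03-fold (0.924 to 1.15) without it. Its additive difference for A83-01 was 0.79 ± 0.139 on the log2 scale (SE, adjusted p = 0.161 by edgeR's quasi-likelihood test), and with total counts as the scale it was 0.94 (adjusted p = 0.0135). Rrm1, the large subunit of the same enzyme, had 123, 76.4, 82.8 and 70.8 CPM. The ratio of Rrm2 to Rrm1 in FPKM was 0.852 in the stiff library with A83-01, 0.768 in the stiff library, 1.17 in the soft library with A83-01 and 0.809 in the soft library.

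Tyms, which makes thymidylate and is the target of fluorouracil, had 21.3, 9.12, 14 and 10.5 CPM. Both libraries with A83-01 lay above both without it, and the ratio was 2.32-fold (2.03 to 2.69) on the stiff matrix and 1.34-fold (1.16 to 1.54) on the soft matrix. Its additive difference for A83-01 was 0.82 ± 0.245 on the log2 scale (SE, adjusted p = 0.293 by edgeR's quasi-likelihood test). Tk1, which salvages thymidine, had 51.2, 31.7, 28.9 and 22.4 CPM and differed with both factors, at 1.77-fold (1.64 to 1.91) between the 2 libraries with A83-01 and 1.62-fold (1.49 to 1.75) for A83-01 on the stiff matrix.

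The 3 genes of chromatin copying were higher in the stiff library of both comparisons, with every interval above 1. Uhrf1, which brings the maintenance DNA methyltransferase to newly copied DNA, had 26.5, 17, 11.3 and 11.6 CPM. The soft libraries were alike and the stiff ones stood above them in 2 steps, at 2.34-fold (2.08 to 2.65) with A83-01 and 1.46-fold (1.28 to 1.68) without it. Chaf1a and Chaf1b, subunits of the complex that deposits histones behind the fork, had 30.5 and 10.7 CPM in the stiff library with A83-01, 21.0 and 8.50 CPM in the stiff library, 17.8 and 6.42 CPM in the soft library with A83-01 and 16.7 and 6.63 CPM in the soft library. None of the 3 differed with A83-01 on the soft matrix beyond its counting interval.

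The regulators of S-phase entry were not alike. Ccne1, a cyclin that activates Cdk2 before S phase, had 11.2 and 12.6 CPM in the stiff libraries with and without A83-01, against 6.72 and 7.44 CPM in the soft libraries with and without it. The matrices did not overlap, at 1.67-fold (1.42 to 1.98) with A83-01 and 1.69-fold (1.44 to 2) without it. Ccne1 was the only gene of the 44 not higher with A83-01 on the stiff matrix, at 0.889-fold (0.769 to 1.03), an interval that contains 1, and under scaling by total counts this turned to 0.11 on the log2 scale. Ccne2, the sister cyclin, had 9.48, 6.36, 5.43 and 7.98 CPM. It was 1.49-fold (1.24 to 1.79) higher with A83-01 on the stiff matrix and 0.683-fold (0.561 to 0.825) on the soft matrix, and it was the only gene whose comparisons of stiff with soft lay on opposite sides of 1 with both intervals excluding 1, at 1.74-fold (1.45 to 2.10) with A83-01 and 0.799-fold (0.658 to 0.966) without it. The gene overlaps a protein-coding neighbour in GRCr8. The ratio of Ccne2 to Ccne1 in FPKM was 0.545, 0.325, 0.522 and 0.692.

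E2f1, an activator of S-phase genes, had 23.1, 16.8, 14.8 and 11.2 CPM, and both factors went with similar ratios, 1.56-fold (1.39 to 1.75) between the 2 libraries with A83-01 and 1.38-fold (1.23 to 1.54) for A83-01 on the stiff matrix. E2f8, an atypical E2F that represses E2F targets and is itself switched on in S phase, had 14, 6.98, 6.42 and 6.09 CPM. One library stood apart and the other 3 were alike: the ratio of the stiff library with A83-01 was 2.17-fold (1.85 to 2.57) to the soft library with A83-01 and 1.99-fold (1.70 to 2.37) to the stiff library. E2f2, another activator, showed the same shape at the lowest FPKM of the set, 0.450 in the stiff library with A83-01, with 88, 17, 27 and 25 counts or 2.47, 0.585, 0.806 and 0.747 CPM. Its ratio was 2.92-fold (1.97 to 4.91) between the 2 libraries with A83-01 and 3.92-fold (2.49 to 7.57) for A83-01 on the stiff matrix, and the few counts leave these intervals wide.

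The 4 recombination and repair genes were all highest in the stiff library with A83-01. Brca2, a tumour suppressor that acts in homologous recombination, had 14.5, 7.36, 8.42 and 8.13 CPM, and Blm, a helicase that unwinds recombination structures, had 11, 6.02, 6.39 and 7.17 CPM. In both, the stiff library was the lowest and the stiff library with A83-01 the highest. Brca2 was 1.96-fold (1.67 to 2.32) higher and Blm 1.82-fold (1.53 to 2.20) higher with A83-01 on the stiff matrix, against 1.04-fold (0.874 to 1.23) and 0.892-fold (0.737 to 1.08) on the soft matrix. Brca1, which acts upstream of Brca2 in the same pathway, had 15.0, 8.81, 10.1 and 7.53 CPM and was higher with A83-01 on both matrices. Exo1, a nuclease that resects DNA ends, had 5.58, 4.68, 3.46 and 3.82 CPM and differed more by matrix.

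Other genes of the same pathway had smaller median ratios. None of the 31 further replication factors on a list of remaining origin, polymerase, checkpoint and fork genes, of the 14 further nucleotide and chromatin genes or of the 18 further G1/S regulators passed the additive test for either factor. At an unadjusted p of 0.05 or less in edgeR, 7 of 31, 5 of 14 and 2 of 18 were higher for stiffness, where 12.1% of all genes were. For A83-01 these counts were 0 of 31, 3 of 14 and 0 of 18, where 7.25% of all genes were higher. The median fold in the stiff library with A83-01 over the soft library with A83-01 was 1.30, 1.25 and 1.11 for these lists, against 1.60 for the 44 genes. Clspn, an adaptor of the replication checkpoint, was the only 1 of the 31 past 2-fold in that pair, with 17.1, 9.77, 6.63 and 6.18 CPM. Asf1b, a histone chaperone of S phase, had 28.8, 16.4, 13.4 and 10.9 CPM, and Tcf19 had 35.4, 21.5, 14 and 14.3 CPM. Among the G1/S regulators E2f7, the partner of E2f8, had 11.2, 6.05, 4.57 and 4.21 CPM, and Ccna2, the cyclin of S phase and G2, had 64.8, 31.5, 24.8 and 22.5 CPM. These 4 were the other genes past 2-fold in that pair, and in each the stiff library with A83-01 stood apart from the rest. Rrm2b, the small reductase subunit known as a p53 target, had 2.78 and 1.03 CPM in the stiff libraries with and without A83-01, against 3.28 and 2.21 CPM in the soft libraries with and without it. Its level in the stiff library was 0.481-fold (0.295 to 0.723) that in the soft library.

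Upstream regulators of S-phase entry were uneven. Ccnd2, a D-type cyclin, was the only one of the 9 D cyclins and CDK inhibitors that passed the additive test, with an additive log2 rise of 1.5 ± 0.192 for stiffness (SE; edgeR's quasi-likelihood test, adjusted p = 0.026), with 40.5 and 24.7 CPM in the stiff libraries with and without A83-01, against 11.9 and 10.5 CPM in the soft libraries with and without it. Ccnd1, the D-type cyclin best known from growth-factor signalling, had 46.2, 13.1, 66.9 and 38.0 CPM, so the stiff library was its lowest and A83-01 went with 3.50-fold (3.14 to 3.94) more on the stiff matrix. Cdkn1a, the inhibitor p21 that p53 and TGF-beta signalling are known to induce, had 50.8 CPM in the stiff library with A83-01, against 123, 106 and 106 CPM in the stiff library, the soft library with A83-01 and the soft library. It was at 0.413-fold (0.389 to 0.436) with A83-01 on the stiff matrix and 1.00-fold (0.955 to 1.05) on the soft matrix. Other CDK inhibitors did not share this order. Cdkn1c, the inhibitor p57, had 3.65, 2.41, 1.40 and 2.54 CPM, Cdkn1b, the inhibitor p27, had 39.6, 31.6, 30.6 and 31.6 CPM, and Cdkn2c, the inhibitor p18, had 16.3, 8.60, 12.7 and 9.26 CPM, each highest in the stiff library with A83-01. Cdkn2b, the inhibitor p15, had 4.88, 7.43, 8.03 and 6.45 CPM and was lowest there, as Cdkn1a was.

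Mitosis genes were also highest in the stiff library with A83-01, for 23 of 24, where 27.2% of all genes were. The median ratios of the mitosis genes were larger than those of the replication genes in both pairs that contain this library. In the stiff library with A83-01, 22 of 24 were at least 2-fold higher than in the soft library with A83-01, where 6.88% of all genes were. Against the stiff library 13 of 24 mitosis genes were, where 7.8% of all genes were. Their median fold was 2.24 between the 2 libraries with A83-01, 1.28 between the 2 without it, 2.01 for A83-01 on the stiff matrix and 1.10 for A83-01 on the soft matrix, against 1.60, 1.27, 1.46 and 1.09 for the replication genes. Mki67, the proliferation antigen, had 345, 132, 133 and 85.7 CPM, and Top2a, the topoisomerase that untangles sister chromatids, had 169, 80.6, 76.8 and 68.9 CPM. Tpx2, Prc1 and Ube2c led the list between the 2 libraries with A83-01, and Cenpf and Cenpe, kinetochore proteins, led it for A83-01 on the stiff matrix at 3.07-fold (2.84 to 3.34) and 2.70-fold (2.51 to 2.91). None of the 24 passed the additive test for either factor, with smallest adjusted p-values of 0.0594 for stiffness and 0.211 for A83-01 by edgeR's quasi-likelihood test. At an unadjusted p of 0.05 or less 17 of them were higher for stiffness and 9 for A83-01, where 12.1% and 7.25% of all genes were. The stiff library with A83-01 also held the highest value of 7 of 9 endothelial and 6 of 10 mural markers, where it did for 27.2% of all genes. The endothelial exceptions were Vwf, lowest there, and Kdr. The part of either cell type in the replication values was not tested.

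**Figure D4:**
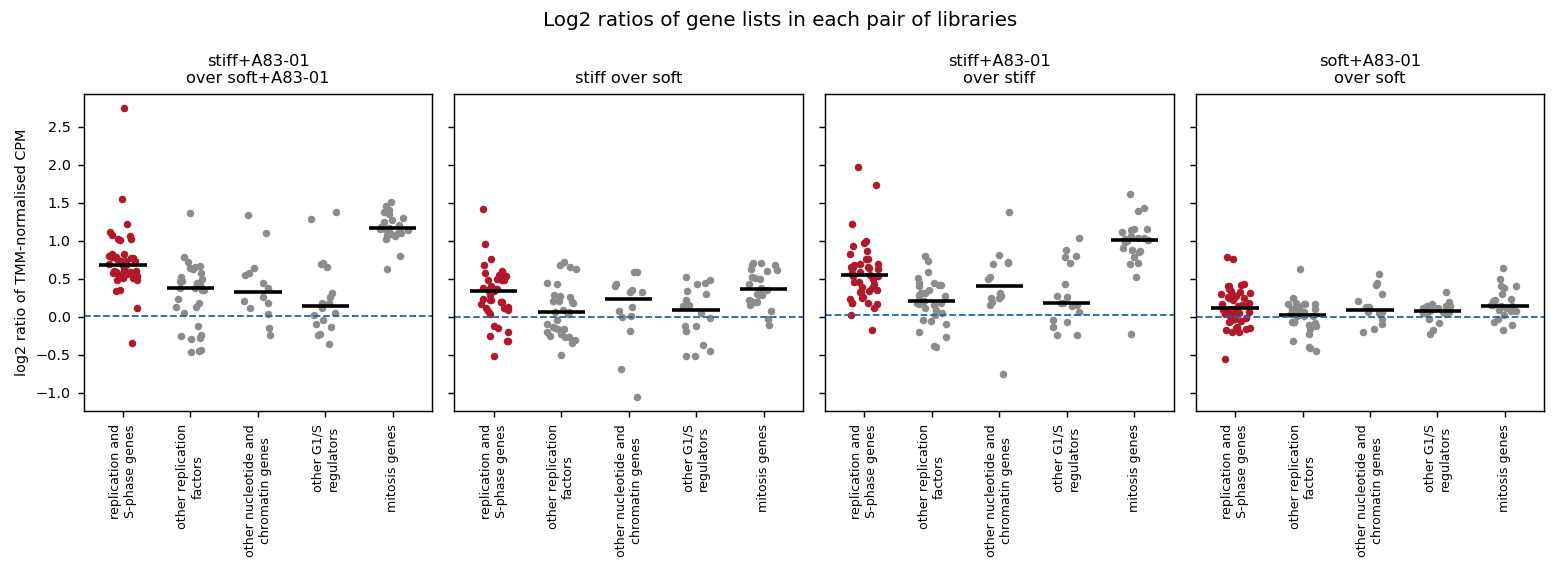
Log2 ratio of TMM-scaled CPM for the 44 replication and S-phase genes and for 4 lists of related genes in each pair of libraries; points are genes, black bars medians, and the dashed line the median of all 13634 genes compared. The replication genes lie between the other replication factors and the mitosis genes in both pairs that contain the stiff library with A83-01, and all lists lie near the dashed line for A83-01 on the soft matrix.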

How the data were processed

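Poly(A) RNA of 4 libraries was read in pairs, per the labels' protocols, which mention neither molecular identifiers nor a strand-marking step. Per the submitters' processing notes, HISAT2 and edgeR were used with the build Rnor_6.0; for versions, counter and annotation, the sources used here give nothing. The count table deposited by the authors gives whole reads for each gene and library, not normalised. A second deposited table holds FPKM, which the authors scaled by transcript length and library size. The 44 genes and all lists were chosen with earlier results of these data known.

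Counts were scaled with TMM in edgeR 4.0.16 (R 4.3.3), with factors of 1.07 for stiff with A83-01, 0.876 for stiff, 1.04 for soft with A83-01 and 1.03 for soft. Genes with at least 1 CPM in at least 1 library were kept. Pair ratios used a prior count of 2 and a 95% conditional binomial (Clopper-Pearson) interval. A level of 3 counts served only as a reference for depth and decided no call. PCR reads without identifiers are not independent molecules, so only counting error is covered. The additive model used the quasi-likelihood test of edgeR, adjusted by the Benjamini-Hochberg method at 0.05 over 13634 genes, with 1 residual degree of freedom and a common dispersion of 0.0351. Of the related lists, the text names genes that passed this test, up to 4 per pair with the largest ratio past 2-fold, and Mki67, Top2a and Cdkn1a. Cdh5, Cldn5, Gse1, Cdkn1b, Cdkn2b, Cdkn2c and single cell type markers were named after their values were seen.

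Alternatives were DESeq2 1.42.0, limma-voom (limma 3.58.1), DESeq2 size factors, total counts alone, no low-count filter, a 5 CPM filter, no second factor, a prior count of 0.5, FPKM ratios and a 1.5-fold threshold. DESeq2 was run without independent filtering. RefSeq tables on GRCr8, another assembly than the authors' build, served only for names, neighbouring genes and promoters, and all 44 symbols matched. Of the 23608 entries, 1563 carry an identifier of an assembled transcript model, and 7 of the 44 genes overlap a protein-coding neighbour, so reads may be shared between such rows. Dna2, Cdkn2d, Ccnb2, Robo4 and Itgam were not analysed here.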

Additional observations from a re-analysis of the deposited data

Results flagged for a closer look

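Ccne2 was singled out because its 2 ratios of stiff to soft lay on opposite sides of 1, each with a counting interval that excludes 1. The ratio was 1.74-fold with A83-01 and 0.799-fold without it, and the log2 ratio without A83-01 minus that with it was -1.12. The same 4 values also put its responses to A83-01 on opposite sides, at 1.49-fold on the stiff matrix and 0.683-fold on the soft matrix, so the soft response minus the stiff response was again -1.12. Mcm7 was singled out in the same way for A83-01, at 1.25-fold on the stiff matrix and 0.874-fold on the soft matrix, a difference of -0.521 on the log2 scale. These differences were not tested, because each condition has 1 library.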

How the results depend on the processing

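No paired analysis was possible because each condition has 1 library and the labels give no shared replicate numbers. Leaving out a library was not run as a test, since 3 libraries leave the additive model no residual degree of freedom. DESeq2 called 2 genes higher for stiffness, limma-voom 3 and total counts 1, in place of 0. In either direction these settings called 9.58%, 7.99% and 12.9% of all genes. Total counts called 2 for A83-01 in place of 0, where 6.11% of all genes were called. Total counts turned the additive stiffness difference of Rrm2 to -0.0197 and the additive A83-01 differences of Rfc3 and Rfc4 to 0.0797 and 0.13 on the log2 scale, and leaving out the second factor turned that of Rfc4 to 0.00127. The cause was not tested. For stiff against soft the median log2 ratio of the 44 genes was 0.11 with total counts and 0.10 with FPKM, in place of 0.34. For A83-01 on the stiff matrix it was 0.83 with either, in place of 0.54. The median of all genes was then 0.31 with either, in place of 0.02. In that pair 10 of the 44 genes with total counts and 9 with FPKM passed 2-fold higher, in place of 3. Of all genes, 12.1% with total counts and 11.3% with FPKM did, in place of 7.8%. At 1.5-fold, 28 genes passed for stiff with A83-01 against soft with A83-01, 20 for A83-01 on the stiff matrix, 6 for stiff against soft and 2 for A83-01 on the soft matrix. DESeq2 size factors, the low-count filters, a prior count of 0.5 and leaving out Cdc45 and Gins2 (chosen after seeing the data) left every such count within 1.5 times its value. Counting error is widest for E2f2, Gins1 and Gins3, which have the fewest counts, and with 1 library per condition the spread between cultures is not measured in any ratio.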
